A study of Mus musculus with 10 samples.

Results

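The genes described here are 10 of the 26335 rows in a table of gene expression from mSCLC-2405 cells treated with stiripentol. They are 9 regulators of the integrated stress response (Atf4, Ddit3, Atf5, Atf3, Trib3, Chac1, Ppp1r15a, Sesn2 and Nupr1) and Gdf15, which encodes a secreted stress cytokine. Each row was found by its gene symbol. The list was chosen from values of the same control and stiripentol libraries, so the differences of these 10 genes between the groups are given as a description, and no test of them is read. The mSCLC-2405 line is a mouse small cell lung cancer line grown from a primary tumour. In the mouse model it came from, tumour suppressor genes, Rb1 among them, are conditionally deleted by Cre recombinase carried by an adenovirus, and control and stiripentol cells share this background. The cells were kept in RPMI medium with 10% FBS and received either DMSO, the solvent (control), or 250 μM stiripentol, an antiseizure drug, for 48 h. Each group had 5 libraries, all from this 1 line.

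The integrated stress response begins when 1 of 4 kinases, each sensing a different stress, phosphorylates the translation factor eIF2α. Protein synthesis as a whole then slows, but a few mRNAs with upstream open reading frames, among them that of the transcription factor ATF4, are translated more. ATF4 and its partners switch on genes for amino acid synthesis and uptake, tRNA charging and further regulators, and defects of the respiratory chain are among the stresses known to engage this response. The kinases act through phosphorylation and ATF4 largely through translation, neither of which RNA levels measure.

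ATF4 binds with C/EBP partners to the C/EBP-ATF response element (CARE), searched here as TGATGNAA on both strands, and ATF and CREB family dimers bind the cAMP response element, searched as TGACGTCA. No sequence of 8 bases can match both. The windows searched were the RefSeq promoters of GRCm38.p6, from 250 bases before to 50 bases after each gene's start, and all 10 genes were matched, with 12 promoters. CARE letters were present in 3.97% of 32851 promoters and in 4 of these 12, those of Atf3, Chac1, Nupr1 and Trib3. The cAMP response element was present in 1.79% of promoters and in 1 of the 12, that of Ppp1r15a. The stretches around these matches are shown because the genes that hold them are those whose levels are described next. Each is written 5′ to 3′ on the gene's strand, with the motif in capitals, and all 4 CARE matches read in the reverse orientation.
Atf3, chr1:191183396-191183483, minus strand: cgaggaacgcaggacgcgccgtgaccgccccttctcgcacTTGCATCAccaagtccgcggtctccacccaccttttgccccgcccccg
Chac1, chr2:119351009-119351096, plus strand: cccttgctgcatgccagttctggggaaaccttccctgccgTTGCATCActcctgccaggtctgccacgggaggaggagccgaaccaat
Nupr1, chr7:126625533-126625620, minus strand: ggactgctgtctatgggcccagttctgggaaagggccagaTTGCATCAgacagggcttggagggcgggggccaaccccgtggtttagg
Trib3, chr2:152344028-152344057, minus strand: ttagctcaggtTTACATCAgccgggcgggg
Ppp1r15a, chr7:45526269-45526320, minus strand: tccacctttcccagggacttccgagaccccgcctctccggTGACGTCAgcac
The match lay 110 to 103 bases before the start in both Atf3 and Nupr1, and 193 to 186 bases before it in Chac1. In Trib3 it lay at bases 15 to 22 of the transcribed part, and in Ppp1r15a 12 to 5 bases before the start. These positions go by the RefSeq starts. The GENCODE M21 annotation starts Trib3 at chr2:152344032, which places the Trib3 match before the start. A match is a description of these letters and not a measured binding site, and binding was not measured in these samples.

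The values are log2 CPM, in which each gene's reads are divided by the library's read total, with a small prior added before the logarithm. The control libraries held 22375625 to 65299372 reads and the stiripentol libraries 55015760 to 60670901. Within each group the libraries fell into 2 clusters. Correlations across genes were 0.983 to 0.997 within a cluster and 0.920 to 0.939 between clusters of the same group. Controls 1 to 3 and stiripentol 3 to 5 are called cluster A here, and controls 4 and 5 with stiripentol 1 and 2 cluster B. What sets the clusters apart is not stated in the sources used here, and across 12306 genes the A minus B difference in control correlated with that in stiripentol at only 0.211. A gene with no reads had a value of -4.82 in controls 1 to 3 and -4.74 in the other 7 libraries, so the values were normalized in 2 sets. The study's methods define n as independent biological samples, meaning individual mice, but all libraries here are of 1 cell line. Whether they came from separate cultures is not stated. The p-values therefore measure only the spread between libraries, which may be technical. Of the 8 small cell lung cancer and neuroendocrine markers checked, 5 were in the table. Of these, Ncam1 was expressed, and Insm1 and Syp were near 0. The summed CPM of 6 fibroblast markers was 317 to 511 in control and 106 to 129 in stiripentol. These markers did not all move alike. Of the 5 with a mean log2 CPM above 0, 3 were below the controls in both clusters, as were 22.8% of the 12306 genes. The other 2, Col1a1 and Dcn, had differences of opposite sign. Col1a1 was at 68.8, 64.7 and 25.4 CPM in the controls of cluster A and at 100.1, 77.4 and 87.0 CPM in its stiripentol libraries. Dcn was at 1.98 and 2.235 CPM in the controls of cluster B and at 7.63 and 6.83 CPM with stiripentol. The summed CPM of 3 leukocyte markers was 6.41 to 18.6 in control and 58.8 to 103 in stiripentol. That sum was nearly all Cd68, which rose (log2 change 3.21, limma adjusted p = 0.000819), whereas Ptprc had no reads in any stiripentol library. Lyz2 was at 2.757, 2.19 and 1.664 CPM in the controls of cluster A and at 3.737, 3.275 and 3.672 CPM in its stiripentol libraries. In cluster B it was at 0.613 and 0.715 CPM in the controls and at 0.577 and 0.724 CPM with stiripentol. The part of these markers' cells in the results below was not tested. In such bulk RNA, fewer cells of a type and less RNA per cell cannot be told apart.

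Of the 10 genes, 9 had a mean log2 CPM above 0 and entered the fit across all genes, and Gdf15 did not. Of those 9, 6 had a higher and 1 a lower mean with stiripentol at a limma adjusted p under 0.05, and Chac1 and Sesn2 were not past that threshold, which only describes where they stand in the fit. Over all 12306 genes tested, 13.6% were higher and 14.1% lower by the same rule. In the same 6 genes (Atf4, Ddit3, Atf3, Trib3, Ppp1r15a and Nupr1) all 5 stiripentol libraries lay above all 5 controls, which held for 13.0% of all genes tested. In Atf5 they lay below all 5 controls, which held for 1759 of the 12306 genes tested. The list was chosen from this contrast, so nothing is read from these counts or shares. With 1 mean per group and library cluster in place of the single libraries, limma called 0 genes of the table, and 1116 had an unadjusted p under 0.05.

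**Figure D1:**
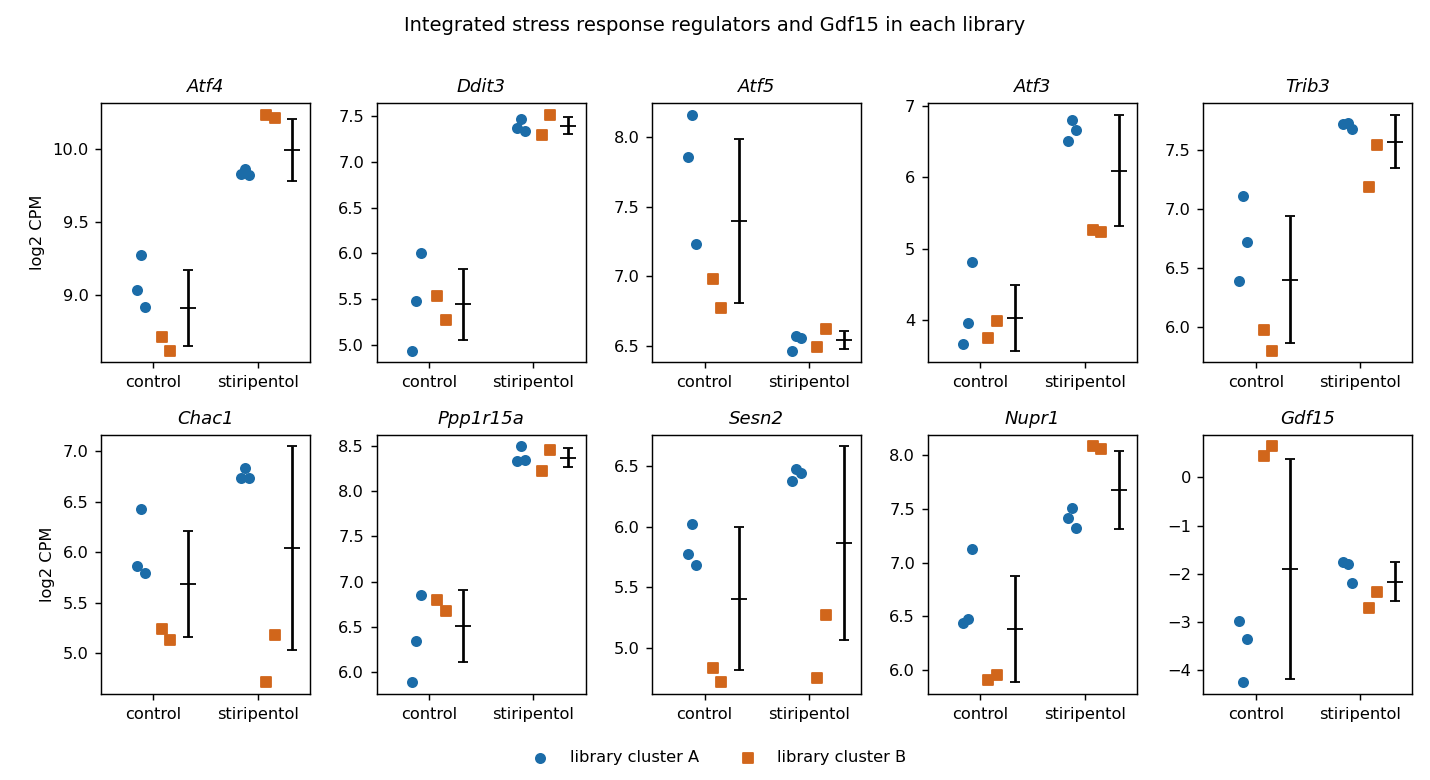
Level of each of the 10 genes in log2 CPM (y axis) in the 5 control and 5 stiripentol libraries (x axis); circles are library cluster A, squares library cluster B, and the black bar is the group mean ± SD (n = 5). The groups do not overlap for 7 of the genes, whereas Chac1, Sesn2 and Gdf15 split by library cluster. Of the 12306 genes tested, 1594 lie wholly above and 1759 wholly below the controls.

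Atf4 encodes the bZIP factor at the centre of the response. Its level in controls 1 to 5 was 525, 620.4, 484, 419 and 394 CPM. In stiripentol 1 to 5 it was 1206, 1189, 912, 933 and 908.5 CPM. The lowest stiripentol library thus lay above the highest control, and the difference of the group means was 1.08 on the log2 scale (standard error 0.15), a 2.12-fold higher level. The difference was 0.77 in cluster A and 1.56 in cluster B. Cluster B held both the lowest controls and the highest stiripentol libraries.

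Ddit3 encodes CHOP, a bZIP factor induced by ATF4 that is known for promoting cell death under lasting stress. It was at 30.7, 44.6, 64.1, 46.4 and 38.5 CPM in controls 1 to 5. With stiripentol the 5 libraries read 156, 182, 165, 176 and 162 CPM. No library of one group came near the other, and the log2 difference was 1.95 (standard error 0.17), or 3.86-fold. Of the 10 genes, Ddit3 had the closest differences in the 2 clusters, 1.91 in A and 2.00 in B.

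Atf3, a bZIP factor induced by ATF4 and by other stresses, stood at 12.6, 15.5, 28.1, 13.4 and 15.8 CPM in controls 1 to 5. Its stiripentol values were 38.3 and 37.7 CPM in libraries 1 and 2 and 90.6, 112 and 102 CPM in libraries 3 to 5. The groups did not overlap, and the log2 difference was 2.06 (standard error 0.36). It was 2.51 in cluster A and 1.38 in cluster B, and within stiripentol the cluster A mean exceeded the cluster B mean by 1.41. Control 3 was apart from the other controls in the direction of the stiripentol libraries.

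Atf5, a bZIP factor whose mRNA has upstream reading frames like that of Atf4, went the other way. It was at 231, 286 and 150.3 CPM in controls 1 to 3 and at 126 and 109 CPM in controls 4 and 5. The stiripentol libraries 1 to 5 gave 89.9, 98.4, 88.3, 95.02 and 94.1 CPM. All stiripentol libraries lay below all controls, and the log2 difference was -0.86 (standard error 0.24). The stiripentol libraries were tightly grouped (6.54 ± 0.06 log2 CPM, SD, n = 5), and the controls were spread (7.40 ± 0.59, SD, n = 5). The difference was therefore -1.22 in cluster A and -0.32 in cluster B, and against controls 4 and 5 alone, which share the normalization of the stiripentol libraries, it was -0.33. In cluster B the sign rested on the scaling, since TMM scaling within the cluster, added once these values were known, gave 0.033 there and -1.28 in cluster A.

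The feedback arm of the response comprises Ppp1r15a and Trib3. Ppp1r15a encodes GADD34, the inducible subunit that directs protein phosphatase 1 to eIF2α. Its controls read 59.3, 81.3, 115, 111 and 102 CPM, and its stiripentol libraries 299, 349.6, 321, 359.9 and 324 CPM. The lowest stiripentol library was thus well above the highest control. The log2 difference was 1.86 (standard error 0.17), or 3.62-fold, with 2.02 in cluster A and 1.60 in cluster B. The gene carries the cAMP response element printed above close to its start.

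Trib3 encodes a pseudokinase that restrains ATF4 and CHOP. In controls 1 to 5 it measured 83.9, 138, 106, 62.9 and 55.7 CPM. In stiripentol 1 to 5 it measured 146, 187, 211, 212 and 204 CPM. Stiripentol 1 exceeded control 2 by a small margin, and the other 4 stiripentol libraries were clear of every control. The log2 difference was 1.17 (standard error 0.24), with 0.97 in cluster A and 1.48 in cluster B. Its relatives moved differently. Trib2 fell by 3.45 (limma adjusted p = 0.0018) and Trib1 fell by 2.00 (limma adjusted p = 0.0184) on the log2 scale.

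Nupr1 encodes a small stress-induced chromatin protein. Its controls were at 86.6, 89.1 and 139.8 CPM in cluster A and at 59.9 and 62.0 CPM in cluster B. With stiripentol the order of the clusters was turned round, with 171, 182 and 159.6 CPM in cluster A and 271 and 267 CPM in cluster B. The log2 difference was 1.30 (standard error 0.25), made of 0.73 in cluster A and 2.14 in cluster B. The groups did not overlap, although control 3 lay close to the lowest stiripentol libraries.

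Chac1 and Sesn2 showed another arrangement. Chac1 encodes a glutathione-degrading enzyme. Controls 1 to 5 had 58.3, 85.8, 55.4, 37.6 and 34.9 CPM, whereas stiripentol 3 to 5 had 106, 114 and 106 CPM and stiripentol 1 and 2 had 26.2 and 36.1 CPM. Within cluster A every stiripentol library was above every control, by a mean log2 difference of 0.74, and within cluster B the libraries of both groups overlapped, with a mean difference of -0.24, which was 0.11 with TMM scaling. The difference over all libraries was 0.35 (standard error 0.45), and it was 0.86 against controls 4 and 5 alone.
Sesn2 encodes a leucine sensor that restrains mTORC1. It was at 54.7, 65.0, 51.4, 28.5 and 26.3 CPM in controls 1 to 5 and at 27.0, 38.6, 83.2, 88.9 and 86.8 CPM in stiripentol 1 to 5. The cluster A libraries of stiripentol were again above all controls, and those of cluster B were within the control range. The log2 difference was 0.46 (standard error 0.39), with 0.60 in cluster A and 0.24 in cluster B. Against controls 4 and 5 alone it was 1.09.

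Gdf15 encodes a secreted cytokine of the TGF-β superfamily that ATF4 and CHOP can induce and that is widely used as a marker of mitochondrial stress. It was barely expressed. Controls 1 to 3 held 6, 1 and 4 reads, controls 4 and 5 held 84 and 34 reads, and stiripentol 1 to 5 held 7, 9, 15, 15 and 10 reads. In CPM the 2 controls of cluster B stood at 1.32 and 1.52, and the 8 other libraries were between 0.0172 and 0.259. Stiripentol libraries were above the controls in cluster A (log2 difference 1.61, 40 reads in all against 11) and below them in cluster B (-3.08, 16 reads against 118). Over all libraries the means differed by -0.27, and the groups overlapped. The difference was 0.32 without control 4 and 0.37 without control 5. The prior was worth 2.06 to 2.32 reads in controls 1 to 3, so their log2 values depend on it, and the difference between the clusters was not tested. Of the receptor genes, Ret was below the filter and Gfral was not analysed here.

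**Figure D2:**
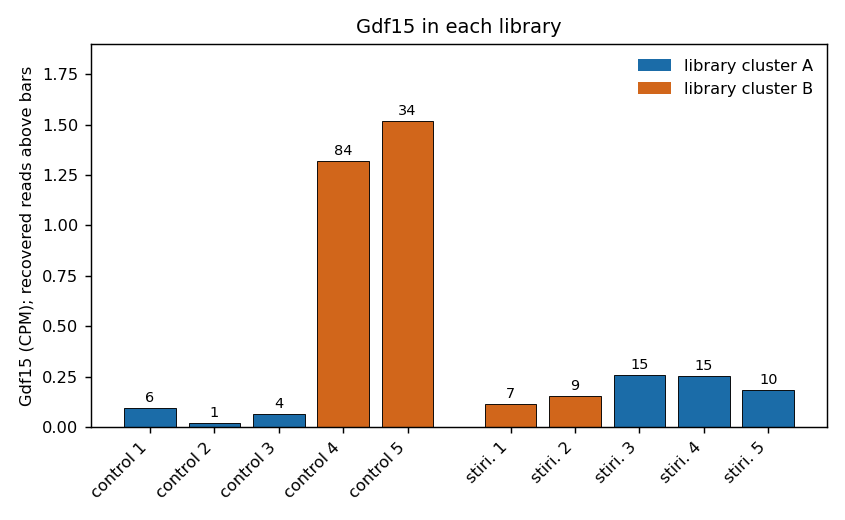
Gdf15 level in CPM (bar height, y axis from 0) in each of the 10 libraries (x axis), with the number of reads above each bar; blue is library cluster A and orange library cluster B. Controls 4 and 5 reach 1.32 and 1.52 CPM, and every other library is at 0.259 CPM or lower.

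Set beside each other by cluster, the 10 genes fell into several patterns. In cluster A 9 were above all controls of that cluster and 1 was below, compared with 41.6% and 29.9% of all genes tested. In cluster B 6 were above and 2 below, compared with 32.4% and 54.3%. Only Atf4, Ddit3, Atf3, Trib3, Ppp1r15a and Nupr1 were above in both clusters, as were 20.2% of all genes tested, and only Atf5 was below in both, as were 22.8% of all genes tested. Differences of opposite sign in the clusters were found for Chac1 and Gdf15, and for 37.0% of all genes tested. Among the controls alone, the cluster A mean was above the cluster B mean for 8 of the 10 genes, with the exceptions of Ppp1r15a and Gdf15, and for 48.8% of all genes tested. In stiripentol it was above for 6 of the 10 and for 66.1% of all genes tested, by 1.41 for Atf3, 1.82 for Chac1 and 1.42 for Sesn2 on the log2 scale. Atf4, Ddit3, Atf5 and Nupr1 were higher in cluster B of stiripentol, by 0.38 for Atf4 and 0.66 for Nupr1 and by less than 0.05 for the other two. TMM scaling would add -0.06 to every difference in cluster A and 0.35 to every difference in cluster B, which turns the cluster B values of Atf5 and Chac1 slightly positive and leaves the signs of the other 8 genes. These cluster values carry no test, because the clusters were found in the same values.

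**Figure D3:**
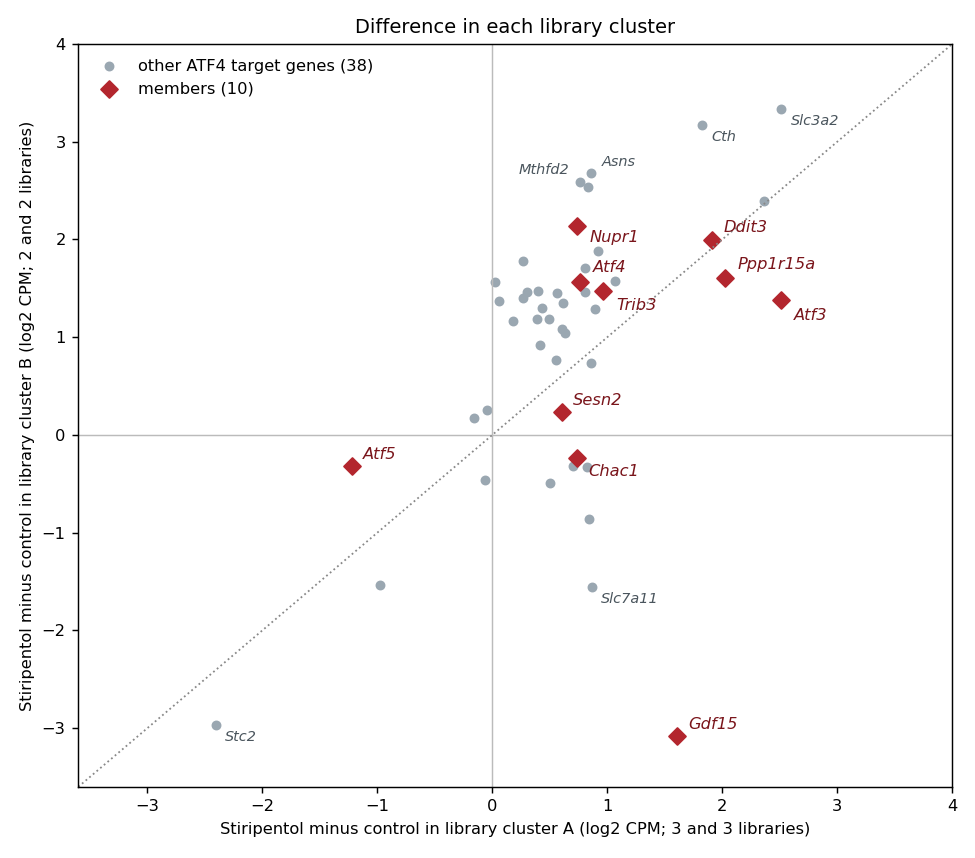
Stiripentol minus control difference in log2 CPM in library cluster A (x axis, 3 and 3 libraries) against cluster B (y axis, 2 and 2 libraries) for the 10 genes (red diamonds) and 38 other ATF4 target genes (grey circles); the dotted line marks equal differences. Ddit3 lies near the line (1.91 and 2.00), Nupr1, Atf4 and Trib3 above it, Atf3 and Ppp1r15a below it, and Gdf15 far below (1.61 and -3.08).

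The genes closest in profile were sought among the 12306 genes tested, by the root mean square difference of mean-centred log2 CPM over the 10 libraries. Nearest to Atf4 were Krtcap2 (0.08), Eif4ebp1 (0.08) and Gars (0.10), compared with a spread of Atf4 itself of 0.58 (SD). Eif4ebp1 encodes the translation repressor 4E-BP1 and Gars glycyl-tRNA synthetase, and both are known ATF4 targets. Nearest to Ddit3 were Ppp1r15a (0.17), Gm6483 (0.20) and Pdzd7 (0.22), against a spread of 1.01. Nearest to Gdf15 were Cacna2d4 (0.29), Cnn1 (0.38) and Ptgds (0.51), against a spread of 1.47. Cacna2d4 had mean log2 CPM values of -0.07 in control cluster A, 3.85 in control cluster B, 1.70 in stiripentol cluster A and 0.91 in stiripentol cluster B. All 3 neighbours of Gdf15 had their highest cluster mean in controls 4 and 5, as Gdf15 did. This follows from how they were picked, and the Gdf15 profile itself rests on 1 to 84 reads in a library.

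The genes upstream of ATF4 were read in the same fit. They were 20 genes for the eIF2α kinases, their relays and inhibitors, the subunits of eIF2 and eIF2B and the eIF2α phosphatases. All 20 were tested, and 2 were higher and 2 were lower, compared with 13.6% and 14.1% of all genes tested. Their median difference was 0.05, compared with -0.06 over all genes tested. Those higher were Eif2s2, an eIF2 subunit (0.48, limma adjusted p = 0.0475), and Eif2b3, an eIF2B subunit (0.49, limma adjusted p = 0.0472). Those lower were Eif2ak4, the amino acid-sensing kinase GCN2, which fell by 0.48 (limma adjusted p = 0.0485), and Ppp1cc, a catalytic subunit of protein phosphatase 1, which fell by 0.78 (limma adjusted p = 0.00422). Of these calls only that of Ppp1cc was far from the threshold, and under other settings the list had 0 to 9 higher and 0 to 8 lower calls.

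The other kinases were not past the threshold. The differences were -0.16 for Eif2ak1, the haem- and mitochondria-responsive kinase HRI, -1.23 for Eif2ak2, the RNA-sensing kinase PKR (limma adjusted p = 0.0607), and 0.17 for Eif2ak3, the endoplasmic reticulum kinase PERK. For Oma1, the protease of the mitochondrial inner membrane that starts the relay to HRI, the difference was 0.06. For Dele1, the relay protein itself, listed as 0610009O20Rik, it was 0.77 (limma adjusted p = 0.0693). By cluster, the differences were -0.43 in A and -2.44 in B for Eif2ak2, 0.80 and -0.77 for Eif2ak3, and 0.64 and -0.83 for Oma1. For Impact, an inhibitor of GCN2, they were 1.30 and -0.75. All 5 stiripentol libraries were below all controls for Eif2ak2. A limma interaction of group and cluster passed the threshold for 13 of the 20 genes and for 63.3% of all genes tested, and nothing is read from it, since the clusters come from the same values. Of 8 bZIP partners, 2 were higher, Cebpg (0.55, limma adjusted p = 0.0258) and Atf7 (0.60, limma adjusted p = 0.0424). The partner that fell was Cebpa, by 1.71 (limma adjusted p = 0.00847). Of all genes tested, 13.6% were higher and 14.1% lower.

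Among 41 other known ATF4 target genes, 38 were tested. Of these, 23 were higher and 2 were lower, compared with 13.6% and 14.1% of all genes tested. Their median difference was 0.77, with 0.58 in cluster A and 1.29 in cluster B, compared with -0.06, 0.08 and -0.25 over all genes tested. In both clusters, 23 targets were above and 2 below the controls, compared with 20.2% and 22.8% of all genes tested. With the replicate number as a block, 18 targets were higher and 1 was lower. This list, like the other comparison lists, was chosen with earlier results of these data known. Its counts and p-values are therefore given as a description. The largest rises were those of Slc3a2, the shared heavy chain of several amino acid exchangers (2.84, standard error 0.18, limma adjusted p = 1.67e-05), Aldh1l2, a mitochondrial folate enzyme (2.38, standard error 0.27, limma adjusted p = 0.000334), and Cth, which makes cysteine from cystathionine (2.36, standard error 0.27, limma adjusted p = 0.000334). Lower were Stc2, a secreted glycoprotein, which fell by 2.63 (limma adjusted p = 0.0111), and Slc38a2, a neutral amino acid transporter, which fell by 1.20 (limma adjusted p = 0.00241).

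Taken by role, 7 of the 10 genes for amino acid synthesis were higher and none lower. The shares over all genes tested, 13.6% higher and 14.1% lower, stand beside this count and those that follow. Asns, which makes asparagine, was between 149 and 375 CPM in the controls and between 568 and 1066 CPM in the stiripentol libraries, a log2 change of 1.59 (limma adjusted p = 0.00335). Of the 12 cytosolic tRNA synthetase genes, 11 were higher, from Nars (0.71) to Eprs (1.51), and Tars was not past the threshold (0.64, limma adjusted p = 0.0927). Transporters were mixed, with 2 of 8 tested higher and 1 lower. Slc7a11, which imports cystine, had differences of opposite sign in the clusters, as Chac1 did, with 0.87 in A and -1.56 in B. Of 8 tested genes for stress and growth regulators, 3 were higher (Eif4ebp1, 1.07; Herpud1, 0.81; Pck2, 0.77) and 1, Stc2, was lower. Fgf21, another secreted mitochondrial stress hormone, was also below the filter. It had 0.184 to 0.565 CPM in the controls and 1.65 to 4.50 CPM in the stiripentol libraries, with no overlap. Asns, Nars, Eprs, Tars, Slc7a11, Eif4ebp1, Herpud1, Pck2 and Fgf21 were chosen for mention after their values were seen.

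**Figure D4:**
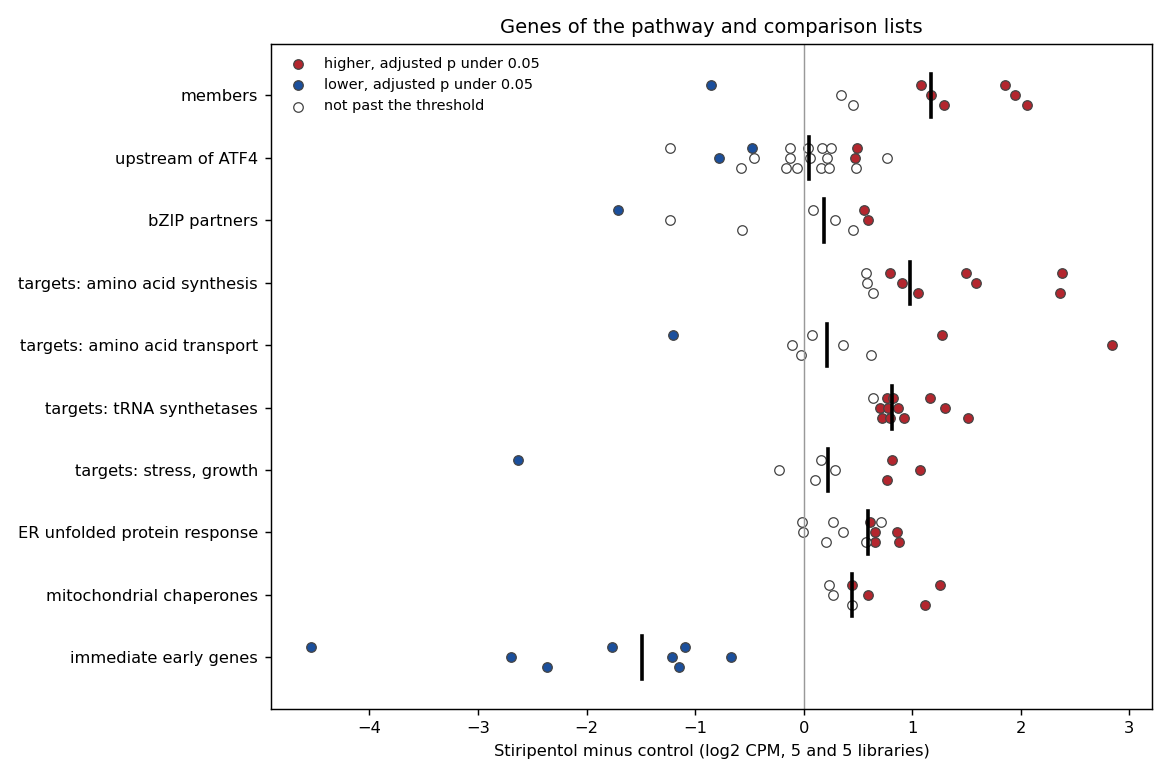
Stiripentol minus control difference in log2 CPM (x axis, 5 and 5 libraries) for each tested gene of the 10 described and of the comparison lists (y axis); filled red and blue circles mark genes higher and lower at a limma adjusted p under 0.05, open circles the others, and the black bar is the list median. Of the 12 tRNA synthetase genes, 11 are higher, the upstream genes centre on 0.05, and all 8 immediate early genes are lower. Of all genes tested, 13.6% are higher and 14.1% lower.

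Other stress programmes that share regulators with these genes were read in the same fit. Of all genes tested in it, 13.6% were higher and 14.1% lower. These lists too were chosen with earlier results of these data known. In the IRE1, XBP1 and ATF6 branches of the endoplasmic reticulum stress response, 5 of 12 genes were higher and none lower, with a median of 0.59. The largest rises were those of the chaperone Hspa5 (0.88, limma adjusted p = 0.0214) and the sensor kinase Ern1 (0.86, limma adjusted p = 0.0327). Of 7 mitochondrial chaperones and proteases, 4 were higher, led by Hspa9 (1.25, limma adjusted p = 0.00312) and Lonp1 (1.12, limma adjusted p = 0.00544), and the median was 0.45. Rb1, deleted in the mouse model, was not past the threshold (0.89, limma adjusted p = 0.143). Gene totals do not show which exons the reads came from and check nothing about the deletion. All 8 immediate early genes were lower, with a median of -1.48, and Egr1 fell by 4.54, Ier2 by 2.69 and Dusp1 by 2.36. Atf3, which is often counted among the immediate early genes, moved opposite to them. All 8 were below the controls in both clusters, as were 22.8% of all genes tested.

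Some of these genes overlap another gene on the opposite strand in GRCm38, and no source used here says whether reads were counted by strand. Atf4 (chr15:80255184-80257541), Trib3, Chac1, Nupr1 and Gdf15 overlapped none in GENCODE M21. Ddit3 (chr10:127290774-127296288) shared 68 bases with Mars, which was itself higher (0.78, limma adjusted p = 0.00930). Atf5 (chr7:44812256-44816658) shared 571 bases with Nup62 and 272 with Il4i1, and Nup62 had a difference of 0.47, not past the threshold (limma adjusted p = 0.203). Ppp1r15a (chr7:45522916-45526268) shared 717 bases with Tulp2, which held 20 control and 28 stiripentol reads in all. Sesn2 overlapped Gm12981 on its own strand, with no control reads and 11 stiripentol reads. GENCODE M21 also lists a second gene named Ddit3 (chr10:127290829-127293753), on the same strand and inside the first. No near-identical copy under another gene symbol was found for any of the 10 genes, at 95% identity over 100 nucleotides. Copies under the same symbol, such as the second Ddit3, were left out of that search.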

How the data were processed

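RNA from 5 control and 5 stiripentol libraries of mSCLC-2405 cells was analysed from 1 table. The authors deposited a log2 CPM value for every gene in every library (GENAVi, per the methods; mm10, per the labels). The methods name a Lexogen QuantSeq 3′ mRNA kit, whereas the labels name TruSeq total RNA, and the aligner, annotation and strand setting are not given in the sources used here. The table also holds group means, fold changes and p-values of the authors' own comparison, which were not used.

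The 10 genes and all comparison lists were chosen with earlier results of these data known. Columns were matched to samples by name. Whole reads were recovered for 100% of values, within 0.05 read plus 1e-06 of the count, and intervals from such reads would cover counting error only. Stiripentol and control values, as deposited, were compared in limma 3.58.1 (R 4.3.3; eBayes with its trend option). The fit took the 12306 genes whose average log2 CPM exceeded 0, and p-values were adjusted by Benjamini-Hochberg with a threshold of 0.05. Differences between clusters used a limma model with an interaction term. Python 3.11.15, numpy 2.4.6, pandas 2.3.3, scipy 1.17.1 and blastn 2.17.0+ were used for the rest. The pairing of clusters across the groups was set in advance, and neither the labels nor matching library numbers give it. Controls 4 and 5 correlated at 0.881 to 0.904 with stiripentol 1 and 2, their partners here, and at 0.932 to 0.938 with stiripentol 3 to 5. Controls 1 to 3 correlated at 0.920 to 0.936 with stiripentol 3 to 5, their partners here, and at 0.840 to 0.875 with stiripentol 1 and 2. Other pairings were not tested.

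Genes named, besides the 10, were those past the threshold in each list, at most the 3 highest and 3 lowest, the kinases and their relay, the genes deleted in the model, and the 3 genes nearest in profile to Atf4, Ddit3 and Gdf15. The results of some genes and of 1 list are not reported here. Gene lists were read by symbol, with older symbols where needed. Alternatives were a replicate block, a cluster term, the omission of each library, each cluster alone, quantile and TMM scaling, other filters and a pseudocount of 1 CPM. After the values were seen, limma voom on recovered reads, 1 mean per group and cluster, controls 4 and 5 alone, and TMM scaling within each cluster were added. Same-numbered libraries did not deviate together from their group means (correlations of -0.24 to 0.06), so the numbers were not taken as pairs.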

Additional observations from a re-analysis of the deposited data

Results flagged for a closer look

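Among 22 groups of 5 values checked for 1 value standing apart from the rest, 2 were found, and chance alone gives about 1.1. For Atf3 in control, the gap from control 3 to the next library was 0.72 of the whole range, just over the critical value of 0.71. For the total reads of the controls, control 5 stood apart with a gap of 0.83 of the range, and it had 22375625 reads. The Atf3 difference was 2.26 without control 3 and 2.05 without control 5.

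Among the 10 genes, the upstream list and the targets, 12 genes had every stiripentol library on one side of the controls in cluster A and on the other side in cluster B, as differences of opposite sign. No test of the difference between the clusters is given for these genes, since the clusters were found in the same values. For Gdf15 the values in cluster A and B were 1.61 and -3.08. Upstream, they were 0.80 and -0.77 for Eif2ak3, 0.64 and -0.83 for Oma1, 1.30 and -0.75 for Impact, -0.45 and 0.52 for Eif2b1, 0.42 and -0.23 for Ppp1ca, and -0.32 and 0.17 for Ppp1cb. Among the targets, they were 0.87 and -1.56 for Slc7a11, 0.83 and -0.33 for Slc1a4, 0.70 and -0.32 for Vldlr, 0.50 and -0.49 for Tnfrsf10b, and 0.85 and -0.86 for Ero1l. TMM scaling adds 0.35 in cluster B, more than the size of the cluster B values of Ppp1ca, Slc1a4 and Vldlr. Of all genes tested, 37.0% had differences of opposite sign. That share goes by the sign of the mean differences alone, a looser rule than the one that gave the 12 genes. The share of all genes under the stricter rule was not counted, so nothing is read from the 12.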

How the results depend on the processing

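Directions of 7 of the 10 genes held under every alternative run. Chac1 turned to -0.24 in cluster B alone, and Atf5 to 0.033 in cluster B with TMM scaling. Gdf15, a difference of means with no test, was -0.27 and ranged from -0.86 (without control 2) to 0.37 (without control 5) when single libraries were left out, with 0.32 without control 4. It was 1.61 in cluster A alone and 1.55 there with TMM scaling, -3.08 in cluster B alone and -2.70 against controls 4 and 5. Leaving out each library in turn, the 10 genes had 6 higher calls throughout and 0 to 1 lower, the targets 18 to 24 higher and 2 lower, the upstream genes 0 to 2 higher and 1 to 4 lower, and all genes 1203 to 1706 higher and 1182 to 1807 lower. The 1 lower call, that of Atf5, was lost without control 1, and the upstream calls were the least stable.

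The replicate block, by numbers that only name the samples, gave 1020 higher and 1062 lower genes, 6 and 1 among the 10 genes, 1 and 2 upstream, and 18 and 1 among the targets. A cluster term gave 2908 higher and 3336 lower genes, 7 and 1 of the 10, with Sesn2 added, and 4 and 4 upstream. Cluster A alone gave 4648 and 3402 genes and 6 and 6 upstream, with 8 and 1 of the 10. Cluster B alone gave 3186 and 5570 genes, 7 and 8 upstream, 29 and 8 among the targets, and 6 and 1 of the 10. With TMM scaling, cluster A gave 4096 and 3842 genes and 6 and 6 upstream, and cluster B 5060 and 4125 genes, 9 and 6 upstream, 31 and 4 among the targets, and 7 and 0 of the 10. For the upstream genes, quantile scaling gave 4 lower, TMM scaling 1 higher, no filter 0 higher and 1 lower, and limma voom 1 higher and 4 lower. Controls 4 and 5 against all stiripentol gave 0 lower among the 10 and 5 higher and 1 lower upstream. With 1 mean per group and cluster, limma called 0 genes higher and 0 lower, in all genes and in every list, and 1116 genes had an unadjusted p under 0.05. Causes of these shifts were not tested, except that the averaged fit has 4 values and each cluster fit fewer libraries. TMM scaling moved every difference over all libraries by 0.10, in cluster A by -0.06 and in cluster B by 0.35.

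The planned count models were not run, a choice made because the deposited unit is log2 CPM. Limma voom was run on the recovered reads instead. Depth limits only Gdf15 among the 10 genes, with 1 to 84 reads in a library.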
